A study of Vicia sativa with 8 samples.

Results

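Dorsal and lateral petals of common vetch (Vicia sativa) were compared with stamens, the organ of the next whorl, in 3 of the 8 libraries of the study. The members of the comparison were the libraries labelled Dorsal petals, Lateral petals and Stamens, and a unigene was called only where both petal libraries stood on the same side of the stamens. A unigene is a contig of the de novo transcript assembly, so several unigenes can be pieces of 1 gene. All 3 organs were dissected from late pre-anthesis flowers of the cultivar Lanjian 3, with flowers of many greenhouse plants pooled into 1 library per organ. The other libraries were ventral petals, sepals and carpels of the same flowers, and leaves and roots of seedlings. They appear below as a further description, and the ventral petals were left out of the comparison because stamen transcripts were read in that library. With 1 library per organ there was no replicate, so no test between organs was possible and no difference below carries a p-value. The intervals given for ratios and shares are exact 95% Clopper-Pearson intervals on the reads, and they cover counting error only.

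The dorsal petal library held 5770315 uniquely aligned reads, the lateral petal library 5888052 and the stamen library 5371113, within the range of 5351178 to 6281382 over all 8. Levels are given as reads, or as RPKM, the reads per kilobase of unigene and per 1000000 uniquely aligned reads. Of 71553 unigenes in all, 45163 had 30 or more reads summed over the 3 libraries and were compared, and the other 26390 were not. For a unigene of 1 kb, a count of 0 allowed an RPKM of up to 0.520 in the dorsal petal library, 0.510 in the lateral petal library and 0.559 in stamens, the level of 3 reads. Unigenes carry the name of their best protein match, which is mostly from another species, and near-identical copies of a family can share or lose reads when only unique alignments are kept. The libraries were not stranded, so transcripts of opposite strands at 1 locus cannot be told apart.

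In the floral homeotic model worked out in Arabidopsis and snapdragon, petals and stamens share the B class MADS-box factors (APETALA3 and PISTILLATA types) and the SEPALLATA partners. Stamens and carpels in addition have the C class factor AGAMOUS, while the A class factor APETALA1 acts in sepals and petals. In papilionoid legumes, CYCLOIDEA-type TCP factors mark the dorsal side of the corolla, so that the dorsal petal (standard), the lateral petals (wings) and the ventral petals (keel) differ in form. Petal tissue is known for flavonoid pigments, scent and a waxy conical epidermis. Shortly before anthesis, stamens carry maturing pollen, whose transcripts serve pollen tube growth, with pectin-modifying enzymes, proton pumps, sugar carriers and the actin cytoskeleton prominent among them.

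The study designed quantitative PCR primers for 61 unigenes, of which 13 were petal-high and 8 stamen-high by the rule below. The primer pairs of 5 CYCLOIDEA-type unigenes are shown because 4 of these unigenes, all but Unigene18024, differed between dorsal and lateral petals against stamens, and because 2 of them match each other closely in the primer regions. The capitals mark the 5′ stretch of 25 bases that the forward primers of Unigene12062 and Unigene12201 share.
Unigene18024 forward: tcaagccctgagatgtgtga
Unigene18024 reverse: cagccaagtgtgattgttgg
Unigene68683 forward: caatttcaatgccgaaacaa
Unigene68683 reverse: ggaaacaagaaattccatagtgaga
Unigene10188 forward: ttgaagccttctttgatgctt
Unigene10188 reverse: ttccttagggatcacatggttt
Unigene12062 forward: CCAGAAACTGATCATAATCAACAAA
Unigene12062 reverse: ttttgaatttccgtcgtcgt
Unigene12201 forward: CCAGAAACTGATCATAATCAACAAAc
Unigene12201 reverse: tttcgagttttcgtcgtcgt
The reverse primers of Unigene12062 and Unigene12201 have the same base at 17 of 20 positions, counted from the 5′ end. The unigenes match at least in these stretches, and how reads were split between them there is not known. The primers of 4 further called unigenes are shown because each stands for a group described below: a pigment hydroxylase and a MYB factor of the petals, a petal dehydrogenase with 0 stamen reads, and an aquaporin of the stamens.
Unigene67121 (flavonoid hydroxylase) forward: ccaaaagtactgccttgatgttag
Unigene67121 (flavonoid hydroxylase) reverse: ctctcattgctcaaagtaaacaaga
Unigene52258 (MYB) forward: tcaagagaggcaacatttcaga
Unigene52258 (MYB) reverse: gtttcctagaagtttgtgaagccta
Unigene62507 (dehydrogenase) forward: aaagcagcagcatgaacttg
Unigene62507 (dehydrogenase) reverse: tccttaagctaggggacttgc
Unigene65459 (aquaporin) forward: gcaatcaacacattaagcaacaa
Unigene65459 (aquaporin) reverse: gataatagagcgattggcgagt

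The petals were set apart from stamens by pigment, phenylpropanoid and lipoxygenase enzymes, cytochromes P450, glycosyltransferases and ABC transporters. The stamens were set apart by pectin enzymes, cation/proton exchangers, hexose carriers and AGAMOUS-type MADS factors. A unigene was called petal-high where its RPKM in dorsal petals and in lateral petals was each 4 or more times that in stamens, and stamen-high where each was 0.25 or less, with counts under 3 set to 3 for the call. The ratios of single unigenes are given on the reads as counted, with their interval, and as a bound where the lower organ had 0 reads. By this rule 3557 unigenes were petal-high, 7.88% of those compared, and 2604 were stamen-high, 5.77%. Dorsal and lateral petals stood on opposite sides of stamens at this fold in 4 unigenes (0.00886%), and 38998 met no rule. In such bulk samples, fewer cells of a type and less RNA per cell cannot be told apart.

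The calls were uneven in size. The lesser of the petal ratios had a median of 6.02-fold over the petal-high unigenes and 14.0-fold over the stamen-high ones. On the petal side 1106 unigenes lay just inside the threshold, at 4 to 5 times, and 1899 just outside, at 3 to 4 times. On the stamen side 356 lay just inside and 776 just outside. Petal-high unigenes took 11.1% of the reads of dorsal petals and 10.7% of those of lateral petals, against 1.36% in stamens. Stamen-high unigenes took 0.794% in dorsal petals and 0.828% in lateral petals, against 14.3% in stamens. The stamen-high set was smaller and held a larger share of the reads of its organ, but each set was picked for being high there. Over all unigenes compared, the median log2 ratio to stamens was 0.16 for dorsal petals and 0.13 for lateral petals. No stamen read was found for 203 petal-high unigenes, and no read in both petal libraries for 214 stamen-high ones.

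**Figure D1:**
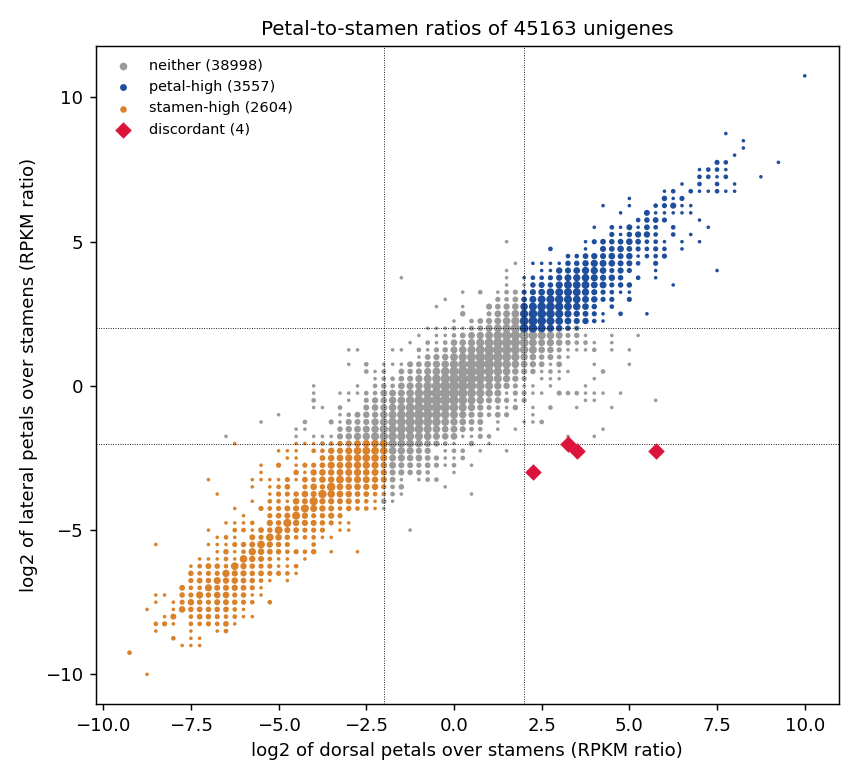
Log2 RPKM ratio of dorsal petals over stamens (horizontal axis) and of lateral petals over stamens (vertical axis) for the 45163 unigenes compared, in bins of 0.25 with the point size following the number of unigenes. Dotted lines mark 4-fold. The 3557 petal-high unigenes lie at the upper right, the 2604 stamen-high ones reach further out at the lower left, and the 4 discordant ones (diamonds) lie at the lower right.

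The petal levels of transcripts abundant in stamens were read from 115 unigenes with 1000 or more stamen reads and at most 1% of the stamen RPKM in leaves and in roots. The other floral organs set no limit, so the set includes general floral unigenes. Among these was the SEPALLATA-type Unigene56502, at 77.4% of the stamen RPKM in dorsal and 72.3% in lateral petals. This set was chosen with the data seen, without use of the petal values. Their median level in dorsal petals was 0.815% of that in stamens (quartiles 0.611% to 1.11%), and in lateral petals 0.553% (0.395% to 0.799%). By the rule 109 of the 115 were stamen-high, against 5.77% of all unigenes compared. The set was picked for high stamen reads, which favours this call, so the count is no independent evidence of direction. The spread was wide, from 0% to 77.4% in dorsal petals and from 0.0555% to 99.7% in lateral petals, and the summed RPKM was 6.10% and 9.73% of that in stamens. The medians were 0.165% in sepals, 0.609% in carpels, 0.067% in leaves and 0.029% in roots. Dorsal petals lay above sepals for 111 of the 115 unigenes and above lateral petals for 84, and lateral petals lay above sepals for 107. In ventral petals the median was 21.2% (17.9% to 26.2%). Above 5% of the stamen level there were 10 of the unigenes in dorsal petals and 11 in lateral petals. Whether these reads came from petal cells or from stamen material was not tested.

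**Figure D2:**
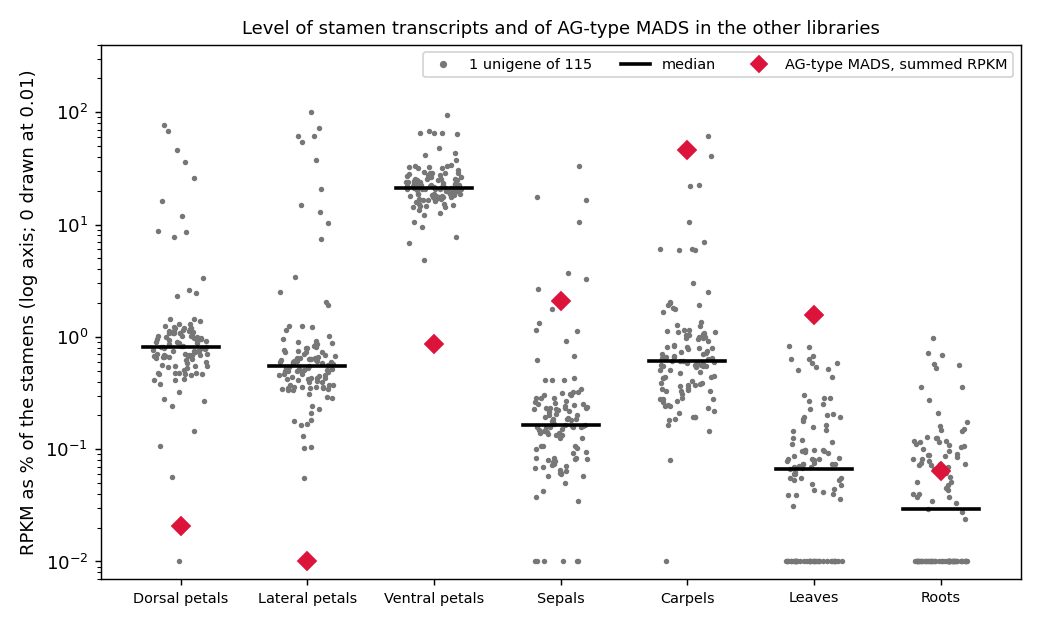
RPKM in each other library as a percent of the RPKM in stamens (log axis, 0 drawn at 0.01) for the 115 unigenes (points, horizontal spread only to separate them), with their median (line) and the summed RPKM of the 6 stamen-high AGAMOUS-type unigenes (diamonds). The points centre on 0.815% and 0.553% in dorsal and lateral petals but 21.2% in ventral petals, while the diamonds lie at 0.0209%, 0 and 0.857%.

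Among the MADS-box lists of classes A, B, C and E only that of class C had petal-high or stamen-high members. AGAMOUS specifies stamens and carpels and is kept out of petals in Arabidopsis. Of 8 AGAMOUS-type unigenes, 6 had enough reads to be compared and all 6 were stamen-high. These lists were built from unigenes the study picked from these libraries, so they are no independent evidence of direction. Each of the 6 also passed the read minimum through its stamen reads alone, which left little room for another call. Unigene15724, an AGAMOUS-like match, had 1 read in dorsal petals and 0 in lateral petals, against 639 in stamens. Unigene45078 had 0 reads in both petal libraries, against 631 in stamens, at least 226-fold lower in dorsal and 231-fold lower in lateral petals, and Unigene53994 had 0 in both, against 282. In Unigene61452, Unigene26271 and Unigene48885 the petals also had 0 reads, against 216, 162 and 47 in stamens. Summed over the 6 unigenes there was 1 read in dorsal petals and 0 in lateral petals, against 1977 in stamens. Scaled by library size, the dorsal petals held 0.0471% of the stamen reads (0.00119% to 0.263%), and the lateral petals 0%, with an upper limit of 0.170%. In carpels the same unigenes had 942 reads, and in ventral petals 17. The remaining pair, Unigene35134 and Unigene2517, had 0 and 2 reads over both petal libraries, against 5 and 14 in stamens, too few to compare.

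The B class factors were present in both organs at like levels. The APETALA3-type Unigene63356 had 678 reads in dorsal petals and 469 in lateral petals, against 366 in stamens, that is 1.72-fold (1.52 to 1.96) and 1.17-fold (1.02 to 1.34). The PISTILLATA-type Unigene20940 had 592 and 628 reads in dorsal and lateral petals, against 427 in stamens, 1.29-fold (1.14 to 1.46) and 1.34-fold (1.18 to 1.52). Another PISTILLATA-type, Unigene55020, had 485 and 496 reads in dorsal and lateral petals, against 422 in stamens, and both ratios were 1.07. None of the 2 APETALA3-type and 3 PISTILLATA-type unigenes was called. The 10 SEPALLATA-type unigenes, partners of the other classes, were also compared without a call, and their median log2 ratio was -0.37 in dorsal petals and -0.08 in lateral petals. The highest by reads, Unigene56502, had 1096 and 1045 reads in dorsal and lateral petals, against 1318 in stamens.

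APETALA1 types were moderately higher in the petals. Unigene61668 had 485 reads in dorsal petals and 298 in lateral petals, against 161 in stamens, 2.80-fold (2.34 to 3.37) and 1.69-fold (1.39 to 2.06). It was far higher in sepals, with 1856 reads. Of the 5 APETALA1/FRUITFULL-type unigenes none was petal-high or stamen-high, and 1, Unigene15476, was discordant. An AGAMOUS-LIKE6-type unigene, Unigene66678, was petal-high. It belongs to a sister lineage of SEPALLATA, and had 74 and 139 reads in dorsal and lateral petals, against 3 in stamens, 23.0-fold (7.56 to 114) and 42.3-fold (14.2 to 207). The MIKC*-type MADS factors act in pollen in Arabidopsis, and all 3 here were stamen-high. Unigene6064 had 0 and 3 reads in dorsal and lateral petals, against 288 in stamens, and Unigene61593 had 0 in both, against 156. Both passed the read minimum through their stamen reads. Unigene62119 was less one-sided, with 19 and 14 reads in dorsal and lateral petals, against 80 in stamens.

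**Figure D3:**
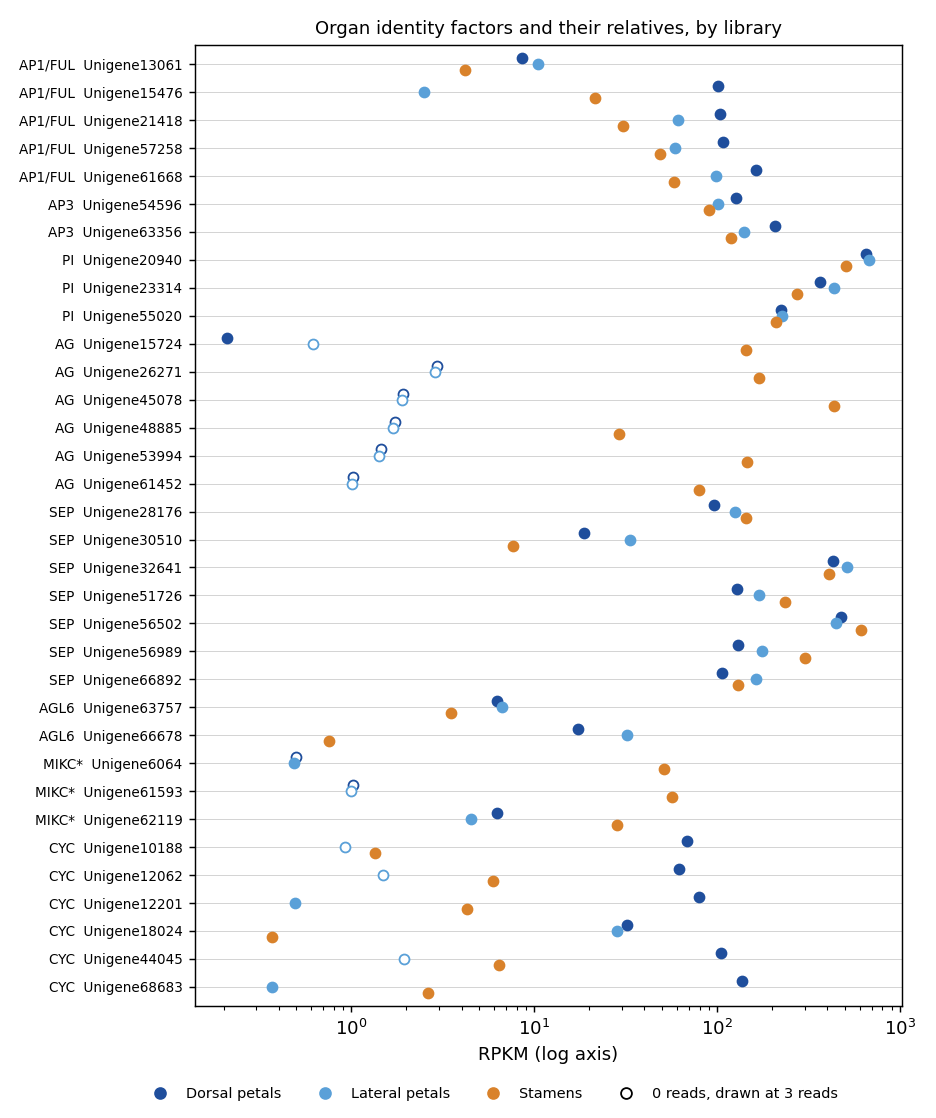
RPKM (log axis) of the organ identity MADS-box factors, their relatives and the CYCLOIDEA-type factors in dorsal petals, lateral petals and stamens, 1 unigene per line; open circles are libraries with 0 reads, drawn at the level of 3 reads. The AGAMOUS and MIKC* lines put stamens far to the right, the APETALA3, PISTILLATA and SEPALLATA lines keep the 3 organs close together except in Unigene30510, and the CYCLOIDEA lines put dorsal petals to the right with lateral petals mostly below stamens.

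CYCLOIDEA-type TCP factors repress or promote growth on the dorsal side of flowers, and in this comparison they divided the petals themselves. Of 8 such unigenes, 2 were petal-high, 2 were discordant and 4 met no rule. Unigene18024 had 186 reads in dorsal petals and 169 in lateral petals, against 2 in stamens, 86.6-fold (23.6 to 720) and 77.1-fold (21.0 to 642). Unigene15024, named after its values were seen, had 73 and 48 reads in dorsal and lateral petals, against 4 in stamens. The other pattern put lateral petals at or below stamens. Unigene68683 had 722 reads in dorsal petals and 2 in lateral petals, against 13 in stamens, 51.7-fold (30.04 to 97.6) and 0.140-fold (0.0154 to 0.620). Unigene10188 had 220 and 0 reads in dorsal and lateral petals, against 4 in stamens. Unigene12201 had 159 and 1, against 8 in stamens, and the related Unigene12062 had 122 and 0, against 11. Unigene44045 repeated this with 159 and 0 reads in dorsal and lateral petals, against 9 in stamens. The dorsal petals thus exceeded stamens in all 7 CYCLOIDEA-type unigenes named here, and the lateral petals exceeded them in Unigene18024 and Unigene15024 among these.

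Besides Unigene68683 and Unigene12062, the discordant unigenes were a MADS factor and a flavonol enzyme. Unigene15476, matched to an AGL8 homolog and in the APETALA1/FRUITFULL-type list, had 394 reads in dorsal petals and 10 in lateral petals, against 78 in stamens, 4.70-fold (3.68 to 6.07) and 0.117-fold (0.0540 to 0.227). Unigene36183, matched to flavonol synthase, which makes flavonols from dihydroflavonols, had 225 and 4 reads in dorsal and lateral petals, against 17 in stamens, 12.3-fold (7.52 to 21.5) and 0.215-fold (0.0525 to 0.658). All 4 discordant unigenes had dorsal petals above and lateral petals below stamens. Among the 3557 petal-high unigenes, dorsal and lateral petals lay within 2-fold of each other in 3393. Dorsal petals were over 2 times lateral petals in 120 and lateral petals over 2 times dorsal petals in 44. The farnesylated protein match Unigene66320 had 627 reads in dorsal petals and 55 in lateral petals, against 2 in stamens, and was 11.6 times higher in dorsal than in lateral petals (8.82 to 15.6). In the other direction, CYP96A8-like Unigene71433 had 480 reads in dorsal petals and 1886 in lateral petals, against 68 in stamens, a lateral level 3.85 times the dorsal one (3.48 to 4.27). In Arabidopsis, cytochromes of the CYP96 family include an enzyme of cuticular wax synthesis.

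Gene lists were set up by words in the protein match, and the members called are read against the 7.88% and 5.77% over all unigenes compared. Where reads are summed over the called members only, the contrast between organs follows in part from the call. Of 38 lists, 14 had more petal-high members, 18 more stamen-high members and 6 equal numbers. They covered 4478 unigenes, among them 409 of the petal-high and 386 of the stamen-high ones, so most called unigenes were in none of these lists.

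**Figure D4:**
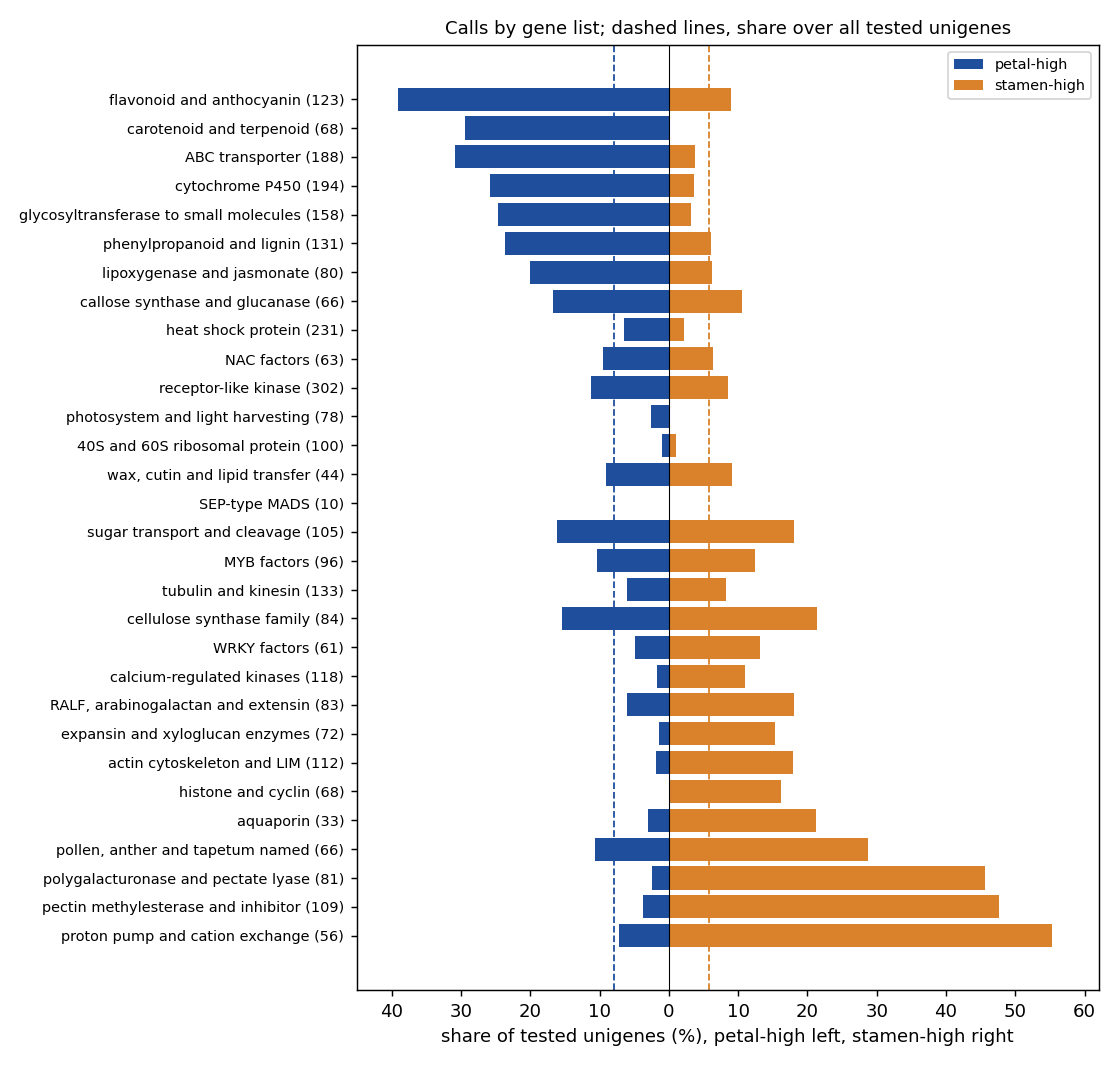
Share of the compared members that were petal-high (to the left) and stamen-high (to the right), in percent, for 30 lists with 10 or more compared members, whose number stands in brackets; dashed lines show 7.88% and 5.77% over all unigenes compared. Flavonoid, carotenoid, ABC transporter, P450 and glycosyltransferase lists extend furthest to the left, and proton pump, pectin methylesterase and polygalacturonase lists furthest to the right.

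Flavonoid and anthocyanin enzymes made up the list with the largest petal-high share among the 30 drawn. Of 123 compared members 48 (39.0%) were petal-high and 11 (8.94%) stamen-high, with a median log2 ratio of 1.66 in dorsal petals and 1.52 in lateral petals. Per 1000000 uniquely aligned reads the list summed to 4166 in dorsal petals and 4558 in lateral petals, against 1548 in stamens. Chalcone synthase, the first committed enzyme of the pathway, was petal-high in 17 of 23 compared unigenes and stamen-high in 4. Over all 23 the median log2 ratio was 4.50 in dorsal and 4.53 in lateral petals. Unigene70190 had 1874 reads in dorsal petals and 682 in lateral petals, against 27 in stamens, 64.6-fold (44.3 to 98.3) and 23.0-fold (15.7 to 35.2). The 4 stamen-high chalcone synthase unigenes summed to 30 and 18 reads in dorsal and lateral petals, against 656 in stamens. The largest of these by stamen reads, Unigene53565, was named after its values were seen, and had 10 and 6 reads in dorsal and lateral petals, against 296 in stamens and 354 in carpels. Chalcone synthase matches thus fell into opposite patterns.

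Dihydroflavonol 4-reductase makes the leucoanthocyanidins that lead to anthocyanins. Of its 13 compared unigenes, 4 were petal-high and 3 stamen-high. Unigene25515 had 910 reads (901 RPKM) in dorsal petals and 1244 (1207 RPKM) in lateral petals, against 2 reads (2.13 RPKM) in stamens, 424-fold (117 to 3502) and 567-fold (157 to 4690). Unigene70321 had 576 and 1726 reads in dorsal and lateral petals, against 79 in stamens, and carpels had 1274. Unigene35150 lay at the threshold, with 919 and 1018 reads in dorsal and lateral petals, against 209 in stamens, and lost its call when the libraries were rescaled. The stamen-high Unigene39809, named after its values were seen, had 75 and 74 reads in dorsal and lateral petals, against 377 in stamens.

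Flavonoid 3′,5′-hydroxylase adds the hydroxyl groups that lead to blue and violet delphinidin pigments. Its unigene, Unigene67121, whose primers are shown above, had 1353 reads in dorsal petals and 3181 in lateral petals, against 272 in stamens, 4.63-fold (4.06 to 5.29) and 10.7-fold (9.42 to 12.1). The lateral level was 2.30 times the dorsal level (2.16 to 2.46). MYB factors as a list were not tilted to the petals, with 10 petal-high and 12 stamen-high of 96 compared members, though with a minimum of 100 reads the balance turned to 10 petal-high and 6 stamen-high. Unigene52258, the MYB factor with primers above, was 1 of the 10. It had 105 and 258 reads in dorsal and lateral petals, against 1 in stamens, 97.7-fold (17.2 to 3897) and 235-fold (41.9 to 9331), and 1 read in sepals and 2 in leaves.

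The phenylpropanoid and lignin list had 31 petal-high (23.7%) and 8 stamen-high (6.11%) members of 131. Its most one-sided member, Unigene33506, matched caffeoyl-CoA 3-O-methyltransferase, which methylates the ring of lignin and other phenolic precursors. It had 3072 reads (2584 RPKM) in dorsal petals and 5269 (4344 RPKM) in lateral petals, against 3 reads (2.71 RPKM) in stamens, 953-fold (326 to 4625) and 1602-fold (548 to 7771). Leaves, roots and carpels had 0 reads of this unigene, sepals 109 and ventral petals 455, so it was nearly restricted to the corolla and sepals in this series. Sinapate 1-glucosyltransferase, Unigene66906, conjugates a phenylpropanoid acid with glucose. It had 2356 and 2462 reads in dorsal and lateral petals, against 51 in stamens, 43.0-fold (32.6 to 57.9) and 44.0-fold (33.4 to 59.3).

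Enzymes that decorate small molecules and transporters followed the same direction. Of 194 compared cytochrome P450 unigenes, which oxidize plant metabolites, 50 (25.8%) were petal-high and 7 (3.61%) stamen-high. The CYP71B2-like Unigene50136 had 1093 and 1796 reads in dorsal and lateral petals, against 81 in stamens, 12.6-fold (10.02 to 15.9) and 20.2-fold (16.2 to 25.6). Glycosyltransferases acting on small molecules had 39 petal-high (24.7%) and 5 stamen-high (3.16%) members of 158. ABC transporters, which move metabolites and lipids across membranes, had 58 petal-high (30.9%) and 7 stamen-high (3.72%) members of 188. Within these 58, the lesser petal ratio ranged from 4.18-fold to 79.1-fold, and 41 were 4 or more times stamens in ventral petals as well. Unigene71864, the ABC transporter with the most reads over the 3 libraries, had 1211 and 1431 in dorsal and lateral petals, against 210 in stamens, and 428 in leaves.

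The carotenoid and terpenoid list had 20 petal-high members of 68 (29.4%) and 0 stamen-high, with median log2 ratios of 1.19 in dorsal and 1.23 in lateral petals. Zeaxanthin epoxidase Unigene71896, of the xanthophyll cycle, met no rule at 856 and 517 reads in dorsal and lateral petals, against 143 in stamens, and leaves had 8141. Photosystem and light-harvesting members, the markers of green tissue, had 2 petal-high and 0 stamen-high of 78, and their median log2 ratio was 0.76 in dorsal and 0.52 in lateral petals. The medians of both lists lay above those over all unigenes compared, 0.16 in dorsal and 0.13 in lateral petals. Most members of both lists were below the fold of the rule. Of the 20 petal-high carotenoid and terpenoid members, 5 were highest in dorsal or lateral petals among the 8 libraries. Whether green tissue had a part in the carotenoid result was not tested.

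Lipoxygenases start the synthesis of jasmonates and of volatile aldehydes. Of 54 compared lipoxygenase unigenes 16 were petal-high and 0 stamen-high, whereas 3 of 5 unigenes of the JAZ repressors of jasmonate signalling were stamen-high and 0 petal-high. The 13S-lipoxygenase Unigene60870 had 1514 and 1450 reads in dorsal and lateral petals, against 45 in stamens, 31.3-fold (23.3 to 43.1) and 29.4-fold (21.9 to 40.5). Unigene4609, the lipoxygenase with the most reads, did not share this, with 9538 reads in dorsal petals and 5076 in lateral petals, against 4751 in stamens, 1.87-fold (1.80 to 1.94) and 0.975-fold (0.937 to 1.01). The wax, cutin and lipid transfer list was even, with 4 petal-high and 4 stamen-high of 44. Its CER1-like Unigene61287, related to the Arabidopsis enzyme of wax alkane synthesis, had 2895 and 3074 reads in dorsal and lateral petals, against 551 in stamens, 4.89-fold (4.46 to 5.37) and 5.09-fold (4.65 to 5.58).

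The highest petal RPKM among named petal-high unigenes belonged to metal and lipid genes beside the phenolic ones. Nicotianamine synthase makes a chelator that carries iron and other metals, and Unigene42108 had 4581 reads (3163 RPKM) in dorsal petals and 2742 (1855 RPKM) in lateral petals, against 129 (95.7 RPKM) in stamens, 33.1-fold (27.7 to 39.7) and 19.4-fold (16.2 to 23.3). The sterol desaturase match Unigene18956 had 1127 and 1047 reads in dorsal and lateral petals, against 152 in stamens. Some petal-high unigenes had no stamen read at all. The zinc-binding dehydrogenase Unigene62507, whose primers are shown above, had 2073 and 721 reads in dorsal and lateral petals, against 0 in stamens, at least 643-fold and 219-fold higher against a floor of 3 reads in the stamen library. It had 72 reads in ventral petals, 2 in sepals, 1 in leaves and 0 in carpels and roots.

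**Figure D5:**
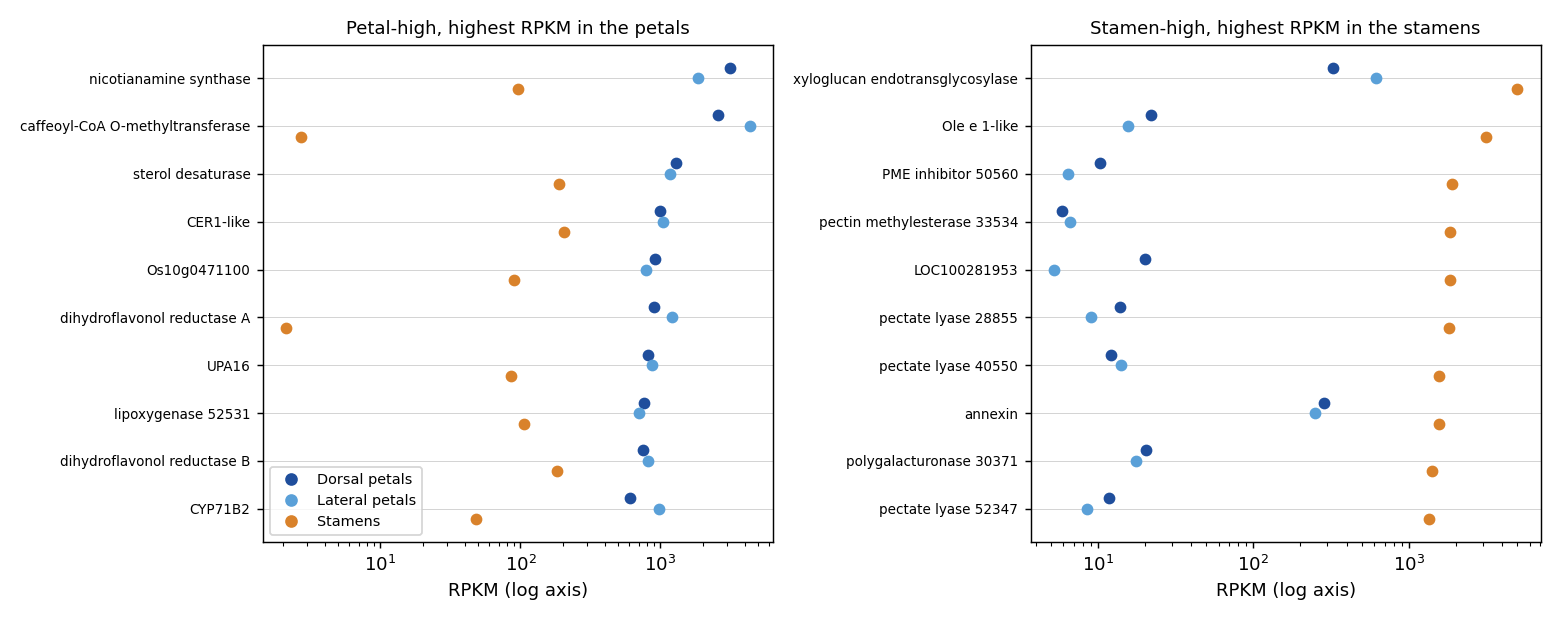
RPKM (log axis) in dorsal petals, lateral petals and stamens of the 10 petal-high unigenes with the highest petal RPKM (left panel) and the 10 stamen-high unigenes with the highest stamen RPKM (right panel). On the left, caffeoyl-CoA O-methyltransferase and dihydroflavonol reductase A (Unigene25515) have the lowest stamen values, at 2.71 and 2.13 RPKM. On the right, all but the xyloglucan endotransglycosylase and the annexin lie at 21.9 RPKM or below in both petal libraries.

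Pectin enzymes were prominent on the stamen side. Pectin methylesterases strip methyl groups from cell wall pectin, and their inhibitors restrain them. Of 109 compared members 52 (47.7%) were stamen-high and 4 (3.67%) petal-high, and the list summed to 1927 reads per 1000000 in dorsal petals and 1730 in lateral petals, against 9995 in stamens. The inhibitor Unigene50560 had 19 and 12 reads in dorsal and lateral petals, against 3220 in stamens, 182-fold (116 to 303) and 294-fold (168 to 570) lower in the petals. The methylesterase Unigene33534 had 7 and 8, against 2035 in stamens, 312-fold (151 to 778) and 279-fold (141 to 647) lower. The 4 petal-high members included Unigene64291, with 791 reads in dorsal petals and 302 in lateral petals, against 37 in stamens, 19.9-fold (14.3 to 28.5) and 7.45-fold (5.28 to 10.8) higher. The family thus had members at either extreme.

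Polygalacturonases and pectate lyases cut the pectin backbone. Of 81 compared members 37 (45.7%) were stamen-high and 2 (2.47%) petal-high, and all 37 were highest in stamens among the 8 libraries. The 18 stamen-high members named pectate or pectin lyase, of 35 compared, summed to 157 and 141 reads in dorsal and lateral petals, against 18779 in stamens. The 19 stamen-high polygalacturonases, of 46 compared, summed to 395 and 491 in dorsal and lateral petals, against 22236 in stamens. Unigene68604, a polygalacturonase, had 47 and 36 reads in dorsal and lateral petals, against 4301 in stamens, 98.3-fold (73.8 to 134) and 131-fold (94.5 to 187) lower. Over all members, called or not, the summed RPKM of this list was 16.4% of the stamen level in dorsal petals and 16.5% in lateral petals, and that of the methylesterase list 21.2% and 19.7%.

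Unigenes named for pollen, anther or tapetum were less uniform. Of 66 compared members 19 were stamen-high (28.8%) and 7 petal-high (10.6%). The pollen-expressed protein MF6t match Unigene66773 had 20 and 11 reads in dorsal and lateral petals, against 1613 in stamens, 86.6-fold (55.9 to 142) and 161-fold (89.6 to 323) lower. Against its name, Unigene57451, matched to an anther-specific proline-rich protein, had 690 and 475 reads in dorsal and lateral petals, against 21 in stamens, 30.6-fold (19.8 to 49.7) and 20.6-fold (13.3 to 33.6) higher. The 19 stamen-high members were all highest in stamens. The Ole e 1-like Unigene1192, related to a pollen allergen of olive, had 22 and 16 reads in dorsal and lateral petals, against 2929 in stamens, 143-fold (94.3 to 229) and 201-fold (123 to 352) lower.

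Proton pumps and cation exchangers, which energize uptake and set ion balance, had the largest stamen-high share among the 30 lists drawn, with 31 of 56 compared members (55.4%) and 4 petal-high (7.14%). Cation/proton exchangers were stamen-high in 21 of 23 and petal-high in 0, and the 21 summed to 34 and 35 reads in dorsal and lateral petals, against 3679 in stamens. Over all 23 the median log2 ratio was -4.75 in dorsal and -4.78 in lateral petals. The 21 passed the read minimum almost wholly through their stamen reads, which left little room for another call. Their count and this median are thus no independent evidence of direction, and they weigh on the share of the whole list. Plasma membrane proton ATPases were split between the organs, with 4 petal-high and 10 stamen-high of 32. Their median log2 ratio was 0.43 in dorsal and 0.42 in lateral petals. Unigene66780 had 13 and 6 reads in dorsal and lateral petals, against 1754 in stamens, 145-fold (84.5 to 273) and 320-fold (147 to 874) lower. Unigene69390 showed the opposite, with 1716 and 1728 reads in dorsal and lateral petals, against 8 in stamens, 200-fold (101 to 463) and 197-fold (99.8 to 457) higher. A further ATPase, Unigene50043, was present in all 3 organs, with 917 and 812 reads in dorsal and lateral petals, against 337 in stamens.

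Sugar supply was divided in the same way. The list of sugar carriers and cleaving enzymes had 17 petal-high and 19 stamen-high members of 105, a balance that turned to 17 petal-high and 14 stamen-high with a minimum of 100 reads, and its subgroups went in opposite directions. Sucrose synthase, which splits sucrose in the cytosol, was petal-high in 9 of 18 and stamen-high in 0. Hexose and monosaccharide transporters were stamen-high in 11 of 26 and petal-high in 0, and the 11 summed to 200 and 135 reads in dorsal and lateral petals, against 11347 in stamens. Over all 26 the median log2 ratio was -1.80 in dorsal and -1.74 in lateral petals. Unigene71426 had 7 and 3 reads in dorsal and lateral petals, against 2665 in stamens, 409-fold (198 to 1018) and 974-fold (333 to 4725) lower. The STP11-like Unigene66772 had 31 and 20, against 2298 in stamens. STP11 is a pollen tube monosaccharide carrier in Arabidopsis.

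Invertases, which cleave sucrose into glucose and fructose, had members at both extremes, with 5 petal-high and 7 stamen-high of 29. Over all 29 the median log2 ratio was 0.29 in dorsal and 0.04 in lateral petals. The soluble (vacuolar type) Unigene59687 had 1008 and 1070 reads in dorsal and lateral petals, against 0 in stamens, at least 313-fold and 325-fold higher. Another 3 petal-high matches to acid invertase, Unigene51481, Unigene58208 and Unigene65936, also had 0 stamen reads and were grouped with it after their values were seen. The 4 together had 3039 reads in dorsal petals and 3130 in lateral petals, against 0 in stamens, at least 943-fold and 952-fold higher against a floor of 3 reads over the group. They were picked for having 0 stamen reads, so the size of this fold follows in part from that choice. Such short unigenes can be pieces of 1 transcript. The stamen-high cell wall invertase Unigene3787, named after its values were seen, had 6 and 4 reads in dorsal and lateral petals, against 473 in stamens. A match to acid vacuolar invertase, Unigene38343, was also stamen-high, with 0 reads in both petals, against 57 in stamens.

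Aquaporins, the water channels, had 7 stamen-high and 1 petal-high of 33. The NIP-type Unigene65459, whose primers are shown above, had 6 and 13 reads in dorsal and lateral petals, against 2076 in stamens, 372-fold (170 to 1014) and 175-fold (102 to 329) lower. It had 41 reads in ventral petals, fewer than in carpels (150) and in sepals (55). All 7 stamen-high aquaporins had ventral petals at 0.25 or less of stamens, against 1106 of the 2604 stamen-high unigenes in all.

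The cytoskeleton and calcium kinase lists had more stamen-high than petal-high members, but most members met no rule. Median log2 ratios in dorsal and lateral petals were -0.08 and -0.14 for the actin and LIM list. They were 0.10 and 0.16 for calcium-regulated kinases, and 0.10 and 0.02 for tubulins and kinesins together. Actin and LIM-domain members were stamen-high in 20 of 112 (17.9%) and petal-high in 2, and the beta-actin match Unigene54708 had 396 and 298 reads in dorsal and lateral petals, against 1499 in stamens. Calcium-regulated kinases were stamen-high in 13 of 118 and petal-high in 2. Tubulins were stamen-high in 8 of 49 and petal-high in 1. Kinesins, the microtubule motors, were petal-high in 7 of 84, near the share over all unigenes, and stamen-high in 3. The beta-tubulin Unigene69042 had 136 and 120 reads in dorsal and lateral petals, against 2140 in stamens.

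Wall proteins and wall-loosening enzymes had more stamen-high than petal-high members. RALF peptides, arabinogalactan proteins and extensins, which signal to or strengthen the wall, were stamen-high in 15 of 83 and petal-high in 5. The fasciclin-like arabinogalactan protein Unigene45539 had 14 and 13 reads in dorsal and lateral petals, against 1941 in stamens, 149-fold (88.6 to 273) and 164-fold (95.5 to 308) lower. Expansins and xyloglucan enzymes were stamen-high in 11 of 72 and petal-high in 1. Unigene18694, a xyloglucan endotransglycosylase and the stamen-high unigene with the highest RPKM in stamens, had 280 reads (323 RPKM) in dorsal petals and 541 (613 RPKM) in lateral petals, against 4019 (4988 RPKM) in stamens, 15.4-fold (13.7 to 17.5) and 8.14-fold (7.44 to 8.93) lower. It also had 2324 reads in ventral petals. The cellulose synthase family was called on both sides, with 13 petal-high and 18 stamen-high of 84, and with 11 and 8 at a minimum of 100 reads.

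Lists of basic cell functions and of regulators differed in the share called, read against 7.88% petal-high and 5.77% stamen-high over all unigenes compared. Ribosomal proteins had 1 petal-high and 1 stamen-high of 100, although their median log2 ratio was -1.02 in dorsal petals and -1.19 in lateral petals. Histones and cyclins had 0 petal-high and 11 stamen-high (16.2%) of 68, with medians of -0.92 in dorsal and -0.85 in lateral petals. These lists of growth and division were thus lower in the petals by about the same factor in both petal libraries. WRKY factors were petal-high in 3 (4.92%) and stamen-high in 8 (13.1%) of 61. Receptor-like kinases were petal-high in 34 (11.3%) and stamen-high in 26 (8.61%) of 302, and 28 each with either rescaling of the libraries. Heat shock proteins were petal-high in 15 (6.49%) and stamen-high in 5 (2.16%) of 231, and petal-high in 9 with either rescaling.

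Levels in the other organs showed how far the called unigenes were particular to the organ in which they were high. Of the 3557 petal-high unigenes, dorsal petals were the highest of the 8 libraries in 1107 and lateral petals in 1123, leaves in 468, roots in 417, sepals in 224, carpels in 118 and ventral petals in 100. Sepals, carpels, leaves and roots were all at most 25% of the lower petal library in 585. In ventral petals 1874 of the petal-high unigenes were also 4 or more times stamens. Stamens were the highest library in 1978 of the 2604, carpels in 322, roots in 151, sepals in 64, leaves in 59 and ventral petals in 30. In 1489 of them sepals, carpels, leaves and roots were all at most 25% of the stamen RPKM. Carpels reached or exceeded stamens in 398 stamen-high unigenes and roots in 280, so those calls were not particular to stamens.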

How the data were processed

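Poly(A) RNA of each organ was made into 1 random-primed, unstranded library and sequenced on an Illumina HiSeq. The authors assembled all organs de novo (SOAPdenovo, TGICL) and deposited, per library, the counts of reads aligned uniquely to each unigene and the RPKM computed from them. The name of the aligner is a detail not given in the sources used here. Recomputed RPKM equalled the deposited RPKM to a relative difference of 5.58e-09. Tables were joined by unigene, and an unlisted unigene was taken as 0 reads.

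Each organ had 1 library, so calls follow a fold rule: 4-fold in both petal libraries, counts under 3 set to 3, and 30 or more reads summed over the 3 libraries. On simulated counts with 8-fold changes and counting error only, the rule recovered 92 of 100 petal-high and 96 of 100 stamen-high unigenes. It called 2 unchanged unigenes. Variation between plants or dissections was not simulated, so the simulation says nothing about it. Alternatives were edgeR 4.0.16 TMM factors and DESeq2 1.42.0 size factors (scaling only, R 4.3.3), other read minimums and folds, the petal mean, each petal alone, ventral petals in addition, RPKM + 1 and unigenes over 200 bp. Calculations used Python 3.11.15, pandas 2.3.3 and scipy 1.17.1.

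Named unigenes were the 4 members with the most reads in each list, the 10 called unigenes with the highest RPKM in each direction, the unigenes the study's supplement pairs with organ identity genes, called unigenes with primers, and the discordant ones. Values are given for part of these. Lists were matched by words in the protein hit, except 6 MADS lists taken from unigenes annotated in the supplement, and their words were corrected after the matched names were read. Members and lists were chosen with earlier results of these data known. The values of 1 list are not reported here.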

Additional observations from a re-analysis of the deposited data

Results flagged for a closer look

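Dorsal and lateral petals moved to opposite sides of stamens in 4 unigenes, and this difference was not tested, since each organ had 1 library. The log2 ratios to stamens in dorsal and in lateral petals were 5.69 and -2.25 in the CYCLOIDEA-type Unigene68683, 3.37 and -2.01 in the CYCLOIDEA-type Unigene12062, 2.23 and -3.10 in the AGL8-like Unigene15476, and 3.62 and -2.22 in the flavonol synthase match Unigene36183. Counts under 3 were set to 3 for these ratios. Dorsal petals were on the high side in each.

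Ventral petals, outside the comparison, held the 115 unigenes abundant in stamens and nearly absent from leaves and roots at a median of 21.2% of their stamen RPKM. The medians were 0.815% in dorsal petals and 0.553% in lateral petals. The summed RPKM of the 6 stamen-high AGAMOUS-type unigenes in ventral petals was 0.857% of that in stamens.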

How the results depend on the processing

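The petal-high count of 3557 was 2342 with a minimum of 100 reads, 9751 at 2-fold, 1081 at 8-fold and 1874 where ventral petals had to pass too. The stamen-high count of 2604 was 1576 with a minimum of 100 reads, 5823 at 2-fold and 1106 with ventral petals. The other alternatives left both counts within 1.5 times, petal-high between 2948 and 4551 and stamen-high between 1766 and 3439. Of all calls 57.7% were petal-high, against 50.9% with TMM factors, 50.4% with DESeq2 size factors and 38.0% at 8-fold. TMM factors lowered the log2 ratio to stamens by 0.18 in dorsal and 0.16 in lateral petals, and DESeq2 size factors by 0.20 and 0.17. With a minimum of 100 reads, the balance of 3 lists turned to the petals, by 3 unigenes for cellulose synthases (11 petal-high, 8 stamen-high), 3 for sugar transport and cleavage (17, 14) and 4 for MYB factors (10, 6). With either scaling Unigene35150 lost its petal-high call and alpha-tubulin Unigene22874, at 449 and 392 reads in dorsal and lateral petals against 1556 in stamens, was called stamen-high. No paired analysis was possible because each organ had 1 library, and for the same reason no library could be left out except by using dorsal or lateral petals alone, which gave 4551 and 4202 petal-high and 3157 and 3072 stamen-high unigenes. Depth limits low unigenes: 737 petal-high unigenes had under 3 stamen reads and 686 stamen-high unigenes under 3 reads in both petal libraries, and the size of their folds is poorly fixed.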

Other observations

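Some members went against the direction of their list or belonged to lists not yet described. Callose synthases and glucanases, which lay down and remove the callose of cell plates and pollen walls, were petal-high in 11 and stamen-high in 7 of 66 compared members. NAC factors were petal-high in 6 and stamen-high in 4 of 63, and 4 each with either rescaling. The NAM-like NAC factor Unigene39387 had 598 reads in dorsal petals and 758 in lateral petals, against 103 in stamens, 5.40-fold (4.38 to 6.73) and 6.71-fold (5.46 to 8.33) higher. Among the calcium-regulated kinases, mostly stamen-high where called, the CBL-interacting kinase Unigene66237 had 1135 and 1180 reads in dorsal and lateral petals, against 202 in stamens, 5.23-fold (4.50 to 6.11) and 5.33-fold (4.59 to 6.22) higher.

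Not every stamen-high unigene was near 0 in the petals. The annexin match Unigene42756, of a family of calcium-dependent membrane-binding proteins, had 421 and 376 reads in dorsal and lateral petals, against 2146 in stamens, 5.48-fold and 6.26-fold lower. The GASA5-like Unigene62913, a peptide of a gibberellin-regulated family in Arabidopsis, had 218 and 295, against 1194 in stamens and 571 in carpels. The mannanase Unigene63810, which cuts wall mannans, had 279 and 308, against 1833 in stamens. These values stand well above the median of 0.815% in dorsal and 0.553% in lateral petals of the unigenes abundant in stamens and nearly absent from leaves and roots. The annexin match was outside that set, with 399 reads in leaves and 940 in roots.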
